A study of Ovis aries with 5 samples.

Results

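Toll-like receptors were followed in dendritic cells (DC) that leave the skin of sheep through the lymph. The members were all probes of a sheep microarray that the array's own annotation names as toll-like receptor 1 to 10, which gave 19 probes of 10 receptors among 15008 probes in all. They were divided into 8 probes of the endosomal receptors TLR3, TLR7, TLR8 and TLR9 and 11 probes of the surface receptors TLR1, TLR2, TLR4, TLR5, TLR6 and TLR10. Of the 19 probes, 18 carry the receptor's symbol and 1, the third for TLR6, was recognised by its description only. All 10 symbols matched a sheep RefSeq gene. In that gene table TLR10, TLR1 and TLR6 are direct neighbours on chromosome 6 and TLR7 and TLR8 on chromosome X.

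Cells that were CD1b+CD26+ and cells that were CD1b+CD26- were sorted from lymph of sheep 30066 and of sheep 10081, with 1 array for each subset and sheep and so 2 arrays per subset. CD1b presents lipid antigens and marks every sorted cell, and CD26 is a surface protease. Each subset array carried the sorted cells in the dye Cy3 and a common reference in Cy5, labelled as total enriched DC of lymph from further sheep, and 1 further array, the self-hybridisation, carried the reference in both dyes. No treatment, breed or age is named in the sources used here, dyes were not swapped, and the labelling protocol describes the Cy5 RNA as that of a cultured cell line, whereas the sample labels call it total DC, the name used below. Values are log2 ratios of Cy3 over Cy5, so 0 is equal signal in both dyes after normalisation and 1 is a 2-fold higher Cy3 signal. A value called above or below the reference is above or below 0. The self-hybridisation itself departed from 0 for some probes, with 0.64 for TLR4 probe 1. Differences against total DC are therefore taken from the self-hybridisation and not from 0. The Cy5 signals were closely correlated between arrays (lowest correlation of log2 Cy5, 0.987). Those of a single receptor probe differed by up to 2.08-fold between arrays, for TLR2 probe 2. No probe on the array is named for CD26 itself, so the sort could not be checked on its own gene. The dendritic markers that could be named and tested, 2 of 9, lay on opposite sides of the reference in CD26+ cells. The lipid-presenting CD1 stood at 1.46 and 1.95 in CD26+ cells (sheep 30066 and then 10081), -0.18 and 0.03 in CD26- cells and -0.22 on the self-hybridisation. The costimulator CD86 stood at -0.83 and -0.58 in CD26+ cells, -1.73 and -1.90 in CD26- cells and -0.08 on the self-hybridisation.

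Toll-like receptors recognise molecules of microbes and viruses and start cytokine release and DC maturation. Receptors on the cell surface mainly bind bacterial lipids and proteins, and the endosomal receptors bind nucleic acids taken up by the cell. Most of them signal through the adaptor MyD88, TLR3 signals through TRIF, and in mouse and human the DC subsets differ in which receptors they carry.

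The probes are 60 bases long, and several of a receptor overlap, so they are repeated readings of a stretch of transcript rather than independent ones. The sequences of the receptors whose values differed most between arrays are given here to show this overlap, as the array files print them, with the run that 2 probes of a receptor share in capitals.
TLR8 probe 1: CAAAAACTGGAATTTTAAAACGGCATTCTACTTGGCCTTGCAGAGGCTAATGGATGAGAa
TLR8 probe 2: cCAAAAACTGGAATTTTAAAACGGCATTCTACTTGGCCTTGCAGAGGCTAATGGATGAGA
TLR3 probe 1: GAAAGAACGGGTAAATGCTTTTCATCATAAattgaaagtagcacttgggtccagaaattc
TLR3 probe 2: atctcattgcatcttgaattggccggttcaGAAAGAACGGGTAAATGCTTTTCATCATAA
TLR4 probe 1: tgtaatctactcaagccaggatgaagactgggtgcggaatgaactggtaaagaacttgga
TLR4 probe 2: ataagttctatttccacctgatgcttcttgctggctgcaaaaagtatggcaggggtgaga
TLR5 probe 1: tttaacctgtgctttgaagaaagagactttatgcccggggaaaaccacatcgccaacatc
The TLR8 probes share 59 bases and are shifted by 1 base, so they are nearly the same probe. The TLR3 probes share 30 bases and the TLR4 probes no run of 20 or more. Shared runs were 54 bases for TLR9, 36 for TLR10, 20 for TLR7 and 20 for the first and second probes of TLR6. Between probes of different receptors the longest shared run was 9 bases.

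Of the 19 probes, 15 probes of 8 receptors were bright enough to be tested, that is, their Cy3 signal stood well above background on 2 or more of the 5 arrays. The others were the probe of TLR1, both of TLR7 and the second of TLR10. TLR1, which pairs with TLR2 to bind bacterial lipopeptides, had Cy3 signals of 50.6 and 47.2 units in CD26+ cells (sheep 30066, then 10081, an order kept below), 53.6 and 62.0 units in CD26- cells and 48.2 units on the self-hybridisation, and was not well above background on any array. TLR7, an endosomal receptor for viral RNA, had 63.7 and 61.5 units in CD26+ cells, against 61.3 and 68.9 units in CD26- cells, with its first probe, which was well above background on 1 of 5 arrays in Cy3 and on 0 in Cy5. TLR1 and TLR7 therefore have only an upper bound in these cells, and their ratios, all between -0.06 and 0.41, are not read as levels.

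**Figure D1:**
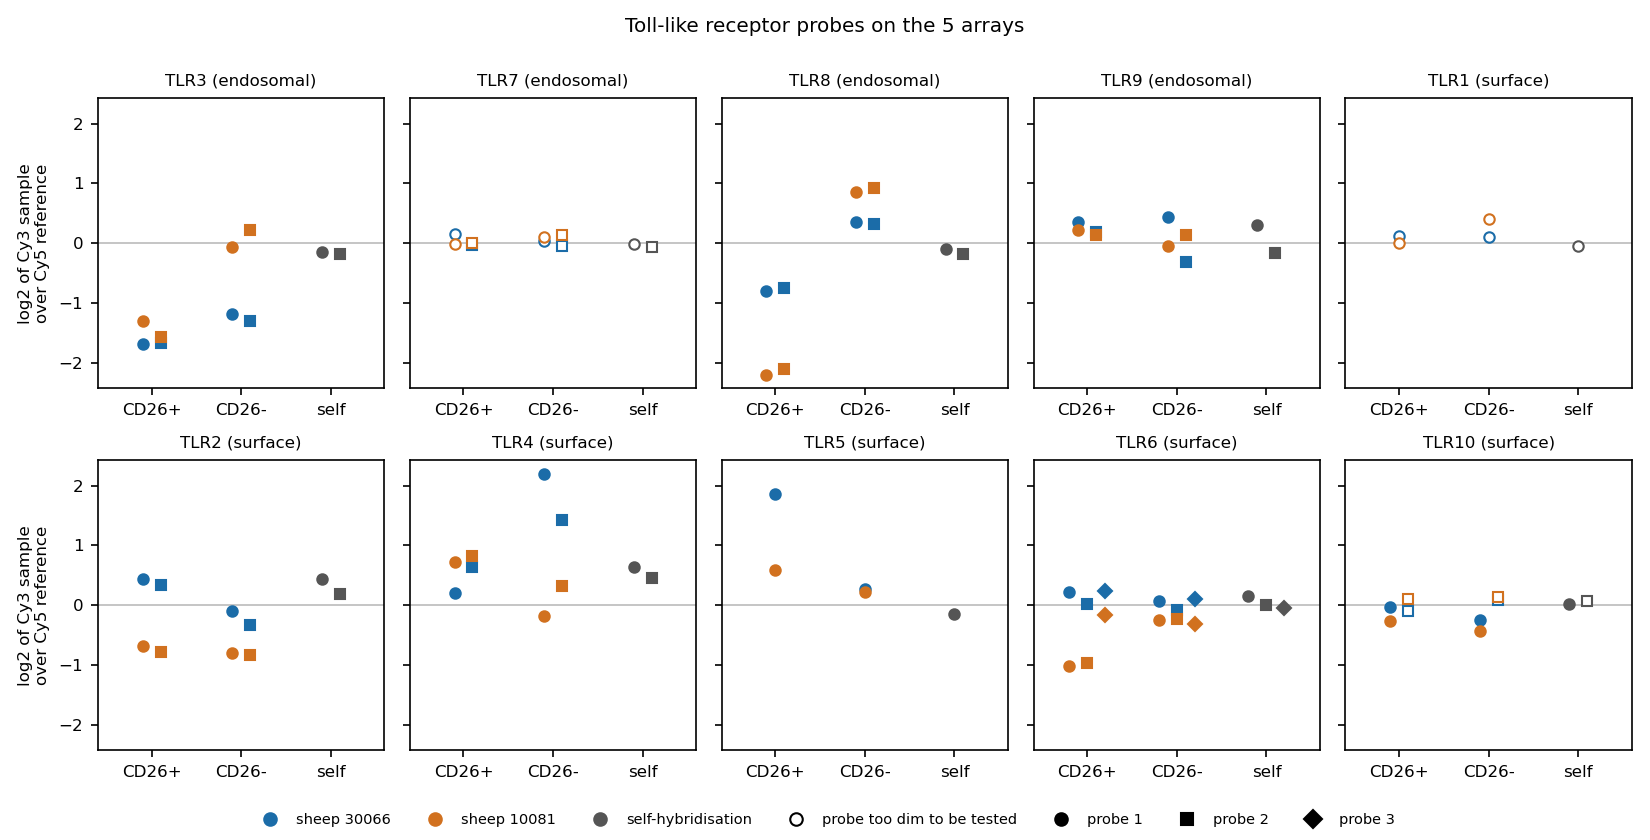
Log2 of Cy3 over Cy5 (vertical axes) for each probe of the 10 receptors in CD26+ cells, CD26- cells and the self-hybridisation, with 1 point per array, colours for the sheep, shapes for the probes and open symbols for probes too dim to be tested. For TLR8 and TLR3 both CD26+ points lie below both CD26- points with either probe, for TLR5 both CD26+ points lie above, and for TLR4 the CD26- array of sheep 30066 stands highest at 2.20 and 1.43.

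In CD26+ cells TLR8, which binds degradation products of RNA in the endosome, was 4.14-fold lower than in CD26- cells by its brighter probe, and TLR3, the endosomal receptor for long RNA duplexes, 2.12-fold lower. TLR5, the receptor for bacterial flagellin, was 1.98-fold higher. Each of these directions was the same in both sheep, and none passed the test. The values that follow are therefore given as sizes with their intervals.

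No probe of the whole array was called between CD26+ and CD26- cells by limma at a Benjamini-Hochberg adjusted p of 0.05 (0 of 13270, 0%), where the smallest adjusted p was 0.762 and 750 probes (5.65%) had an unadjusted p under 0.05. With the sheep as a block the count was also 0, with 1123 probes under that unadjusted limit. Among the 8 tested receptors, each by its brightest probe, 2 had lower values in CD26+ cells of each sheep, 3 had higher values in each and 3 went opposite ways. Over all probes with a value in both sheep those shares were 28.5% lower, 27.6% higher and 43.9% opposite. The arrays of the subsets did not overlap for 3 of the 8 receptors, with CD26+ below CD26- for TLR8 and TLR3 and above for TLR5, against 16.7% and 14.9% of all probes. Only TLR8 reached a 2-fold difference one way in each sheep, and 2.98% of all probes did so on that side.

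TLR8 had Cy3 signals of 193.7 and 115.1 units in CD26+ cells, against 470.2 and 758.8 units in CD26- cells and 297.8 on the self-hybridisation, by probe 2. Its Cy5 signal, the common reference, lay between 569 and 812 units on all 5 arrays. The log2 ratios were -0.75 and -2.10 in CD26+ cells, 0.31 and 0.93 in CD26- cells and -0.18 on the self-hybridisation. Both CD26+ arrays were thus below the reference and both CD26- arrays above it, and sheep 10081 had both the lowest and the highest value.

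TLR8 differed by -2.05 on the log2 scale between CD26+ and CD26- cells (SE 0.60, 95% interval -3.67 to -0.43 before adjustment, n = 2 sheep, adjusted p = 0.847 by limma). The difference was -1.07 within sheep 30066 and -3.03 within sheep 10081, and whether the sheep differ in it was not tested. Probe 1, which shares all but 1 base, gave -2.11 (SE 0.61), and its ratio differed from that of probe 2 by at most 0.10 on any array. A larger absolute difference than that of probe 2 was found in 1.8% of tested probes. With the sheep as a block the adjusted p was 0.587. With 1 array left out at a time the difference lay between -2.73 and -1.38.

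Against total DC, TLR8 stood at -1.25 in CD26+ cells (SE 0.74, 95% interval -3.23 to 0.74, adjusted p = 0.596 by limma) and at 0.80 in CD26- cells (SE 0.74, 95% interval -1.18 to 2.79, adjusted p = 0.793). The order of the levels was CD26-, total DC and CD26+, and neither subset differed from total DC beyond the spread. In both comparisons no probe was called (0 of 13210 each, 0%), with 1496 probes (11.3%) for CD26+ and 1402 (10.6%) for CD26- at an unadjusted p under 0.05 in limma. These comparisons share the single self-hybridisation array, so the spread of total DC is taken from the subset arrays.

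TLR3 had Cy3 signals of 126.0 and 159.8 units in CD26+ cells, against 189.6 and 536.2 units in CD26- cells and 342.7 on the self-hybridisation, by probe 2. The log2 ratios were -1.67 and -1.57 in CD26+ cells, -1.30 and 0.23 in CD26- cells and -0.19 on the self-hybridisation. Both CD26+ arrays and the CD26- array of sheep 30066 lay well below the reference, while the CD26- array of sheep 10081 lay near it. The Cy5 signal differed by at most 1.15-fold among the 5 arrays.

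TLR3 differed by -1.09 between CD26+ and CD26- cells (SE 0.62, 95% interval -2.74 to 0.57, adjusted p = 0.947 by limma), -0.37 within sheep 30066 and -1.80 within sheep 10081. Probe 1 gave -0.87 (SE 0.52). Without the CD26- array of sheep 10081 the difference by probe 2 was -0.32. Against total DC, TLR3 was at -1.44 in CD26+ cells (SE 0.75, adjusted p = 0.551), -1.49 in sheep 30066 and -1.38 in sheep 10081, which is at least 2-fold lower in both, as in 8.8% of all probes. In CD26- cells it was at -0.35 (SE 0.75), -1.11 in sheep 30066 and 0.41 in sheep 10081. This last mean was 0.04 when all spots entered the background model and 0.41 without the array of sheep 30066, so its direction depends on both.

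TLR9, the endosomal receptor for bacterial DNA with unmethylated CpG, had log2 ratios of 0.35 and 0.22 in CD26+ cells, 0.44 and -0.05 in CD26- cells and 0.30 on the self-hybridisation by probe 1. Probe 2, with 54 of its bases in common, read 0.18 and 0.14 in CD26+ cells, -0.32 and 0.14 in CD26- cells and -0.16 on the self-hybridisation. The ranges of the subsets overlapped with each probe. The difference between CD26+ and CD26- cells was 0.09 (95% interval -0.92 to 1.09) by probe 1 and 0.25 (95% interval -0.74 to 1.24) by probe 2, and that of probe 1 was -0.04 when arrays were centred on their medians without loess. The probes were 0.76 apart on the CD26- array of sheep 30066, where the Cy5 signal of probe 2 was 165.4 units, against 104.4 to 128.1 on the other arrays.

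Of the endosomal receptors, 3 of 4 were tested, with a median difference of -1.09 between CD26+ and CD26- cells, 2 lower in both sheep and 1 opposite. Of the surface receptors, 5 of 6 were tested, with a median of 0.19, 3 higher in both sheep and 2 opposite. The median over all tested probes was -0.01. Over all probes with a value in both sheep, 28.5% were lower in both, 27.6% higher in both and 43.9% opposite. Some of the higher surface values were small, 0.05 for TLR2 in sheep 10081 and 0.22 and 0.16 for TLR10. The counts for the classes describe the receptors that were bright enough, and the classes were not tested against each other.

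**Figure D2:**
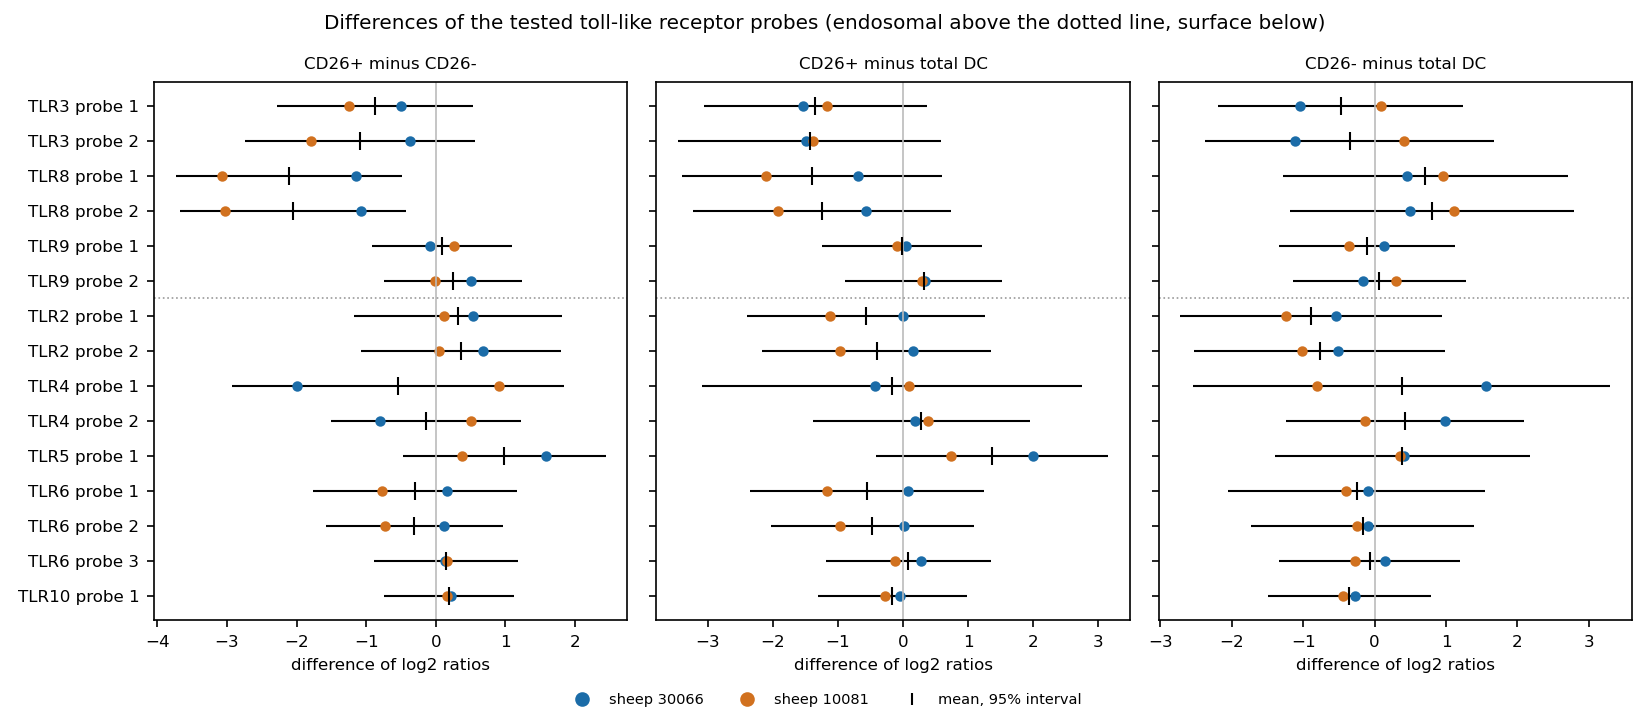
Differences of log2 ratios (horizontal axes) for the 15 tested probes, CD26+ minus CD26-, CD26+ minus total DC and CD26- minus total DC from left to right, with the endosomal receptors above the dotted line. Bars are the mean of the sheep with its unadjusted 95% interval and points are single sheep; between the subsets the interval excludes 0 for the TLR8 probes (-3.74 to -0.48 and -3.67 to -0.43) and for no other receptor.

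TLR5 had log2 ratios of 1.86 and 0.59 in CD26+ cells, 0.27 and 0.21 in CD26- cells and -0.14 on the self-hybridisation. Its Cy3 signals were 239.1 and 96.8 units in CD26+ cells, against 75.9 and 96.6 units in CD26- cells, and 62.8 on the self-hybridisation. The CD26+ array of sheep 30066 was the single high one, and in the raw Cy3 signal the remaining subset arrays were near each other. The Cy5 signals were 100.7 and 82.4 units on the CD26+ arrays, 94.8 and 107.2 on the CD26- arrays and 97.5 on the self-hybridisation. They were well above background on 4 of 5 arrays. Within sheep 10081 the Cy3 signals were thus nearly equal, and the Cy5 signals of the reference differed. The difference between CD26+ and CD26- cells was 0.98 (SE 0.54, 95% interval -0.47 to 2.44, adjusted p = 0.944 by limma), 1.59 within sheep 30066 and 0.38 within sheep 10081. Without the CD26+ array of sheep 30066 it was 0.35. Against total DC it was 1.37 in CD26+ cells (SE 0.66, adjusted p = 0.523) and 0.39 in CD26- cells (SE 0.66, adjusted p = 0.898).

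TLR4, which binds bacterial lipopolysaccharide together with its coreceptors, had log2 ratios of 0.21 and 0.73 in CD26+ cells, 2.20 and -0.17 in CD26- cells and 0.64 on the self-hybridisation by probe 1. Probe 2 read 0.63 and 0.83 in CD26+ cells, 1.43 and 0.32 in CD26- cells and 0.45 on the self-hybridisation. The CD26- array of sheep 30066 was the highest with each probe, with Cy3 signals of 427.6 and 416.1 units, and the ranges of the subsets overlapped. On that array the Cy5 signal of probe 2 was also the highest, at 233.5 units against 135.5 to 138.9 on the other arrays, although the reference RNA was the same, while that of probe 1 was 135.1 units, within its range of 107.2 to 146.8.

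The sheep went opposite ways for TLR4. By probe 1 the difference between CD26+ and CD26- cells was -1.99 within sheep 30066 and 0.90 within sheep 10081, and by probe 2 it was -0.80 and 0.51. The means were -0.54 (95% interval -2.93 to 1.84) and -0.14 (95% interval -1.51 to 1.22). The mean of probe 2 was 0.31 when all spots entered the background model and 0.41 without the CD26- array of sheep 30066, so no direction is given for TLR4.

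**Figure D3:**
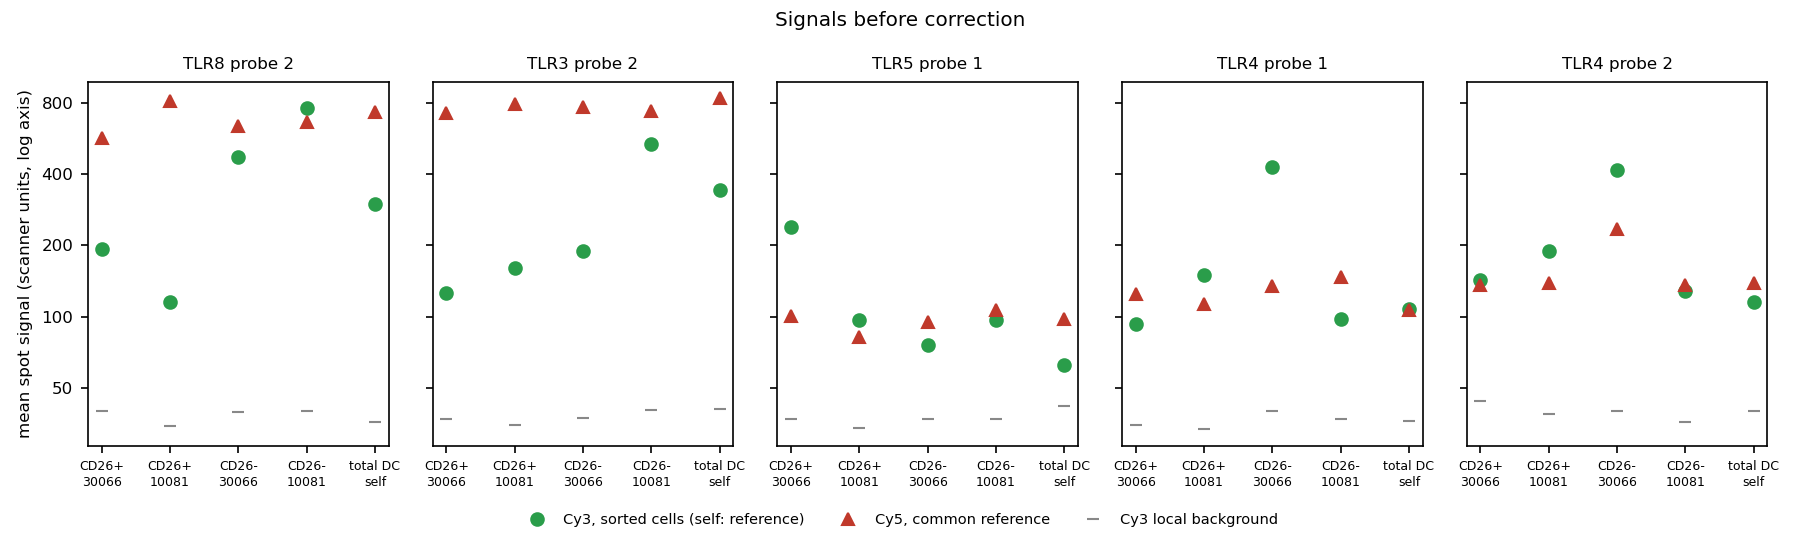
Mean spot signals in scanner units (vertical log axis) on each of the 5 arrays before any correction, for TLR8 probe 2, TLR3 probe 2, TLR5 and both TLR4 probes. Circles are Cy3, triangles the common Cy5 reference and dashes the local Cy3 background; the TLR8 circles span a 6.59-fold range over the subset arrays while its triangles span 1.43-fold over all arrays, and the second TLR4 probe has its highest triangle on the CD26- array of sheep 30066.

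TLR2, the receptor for bacterial lipoproteins, was higher on both arrays of sheep 30066 than on both of sheep 10081. Its log2 ratios were 0.43 and -0.68 in CD26+ cells, -0.10 and -0.79 in CD26- cells and 0.44 on the self-hybridisation by probe 1. That probe is present as 5 spots per array, whose SD within an array was 0.025 to 0.084, a measure of the spot-to-spot spread only. The sheep were 1.12 apart in CD26+ cells and 0.69 in CD26- cells, with 1 array for each sheep and subset, so this distance was not tested. Probe 2 read 0.35 and -0.78 in CD26+ cells, -0.33 and -0.83 in CD26- cells and 0.19 on the self-hybridisation. On the CD26+ arrays its Cy5 signals were 13139 and 27324 units, although the reference RNA was the same, and its Cy3 signals 6939 and 6074. These signals are not corrected for differences between arrays. By probe 2 the sheep were 1.13 apart in CD26+ cells, near the distance by probe 1, and what it rests on was not tested. For probe 1 the Cy5 signals on these arrays were 17475 and 22219 units and the Cy3 signals 9550 and 5377. The difference between CD26+ and CD26- cells by probe 2 was 0.36 (95% interval -1.07 to 1.80), 0.67 within sheep 30066 and 0.05 within sheep 10081, and it was -0.20 without the CD26+ array of sheep 30066. Against total DC, CD26- cells were at -0.77 (95% interval -2.53 to 0.99) and CD26+ cells at -0.41 (95% interval -2.17 to 1.35).

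TLR6, which pairs with TLR2 to bind diacylated lipopeptides, read 0.03 and -0.96 in CD26+ cells, -0.09 and -0.23 in CD26- cells and 0.01 on the self-hybridisation by probe 2, and 0.23 and -1.01, 0.07 and -0.25, and 0.16 in the same order by probe 1. Probe 3, which shares no run of 20 bases with these, read 0.24 and -0.16 in CD26+ cells, 0.10 and -0.31 in CD26- cells and -0.04 on the self-hybridisation. The low value of the CD26+ array of sheep 10081 was thus found with the overlapping probes 1 and 2 and not to that extent with probe 3, which was 0.85 apart from probe 1 there. The difference between CD26+ and CD26- cells was -0.31 (95% interval -1.58 to 0.97) by probe 2 and 0.14 (95% interval -0.89 to 1.18) by probe 3.

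TLR10, a surface receptor related to TLR1 and TLR6 whose ligands are less well known, read -0.03 and -0.27 in CD26+ cells, -0.25 and -0.43 in CD26- cells and 0.01 on the self-hybridisation by probe 1. The ranges overlapped, and the difference of 0.19 between CD26+ and CD26- cells (95% interval -0.74 to 1.12) was -0.12 when all spots entered the background model. For TLR2, TLR4, TLR9 and TLR10 the interval of the brightest probe includes a 2-fold higher level in CD26+ cells, so the missing calls do not show equal levels.

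Both arrays of sheep 30066 lay above both arrays of sheep 10081 for 4 of the 8 tested receptors by their brightest probes, TLR2, TLR6, TLR9 and TLR10, and the reverse held for 0. Each of these patterns was found in 23% of all probes. By its other probe TLR9 overlapped between the sheep. In CD26- cells the sheep were only 0.14 apart for TLR6 and 0.17 for TLR10. Sheep 30066 and the self-hybridisation occupied 1 row of the slide and sheep 10081 the other row, so that an effect of the sheep and of the row cannot be told apart. The 6 of 10 T-cell markers that could be named and tested had summed log2 ratios of 1.58 and 7.27 in CD26+ cells, 2.31 and 5.52 in CD26- cells and 0.87 on the self-hybridisation. They did not share a direction. CD3D, a chain of the T-cell receptor complex with the widest distance between the sheep, read 0.10 and 3.18 in CD26+ cells and 1.41 and 4.11 in CD26- cells, higher in sheep 10081, as was CD3E. CD247, another chain of the complex, read -0.30 and -1.45 in CD26+ cells and -1.92 and -2.53 in CD26- cells, lower in sheep 10081. CD5 and GATA3 were mixed and CD4 was near 0 on all arrays. Their part in the receptor values was not tested.

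Markers of several cell types had lower values in CD26+ cells, as TLR8 and TLR3 had, and markers of others had higher values. Between the subsets the dendritic markers CD1 and CD86 stood at 1.78 and 1.11. IL12B, the 1 tested of 7 listed markers of type 1 DC, stood at 3.90. It is a cytokine chain that is also among the target genes below, and it alone does not identify type 1 DC. GNLY, the 1 tested of 4 NK cell markers, stood at 3.24 by its brightest probe and at 0.78 to 1.11 by 3 others. Its brightest probe had no value in CD26- cells of sheep 10081. Of the 6 markers of monocytes and macrophages reported here, 2 could be named and tested, and CD14 and CHI3L1 were each lower in CD26+ than in CD26- cells in both sheep, with summed log2 ratios of 0.11 and 0.32 in CD26+ cells, 1.11 and 3.1 in CD26- cells and 0.28 on the self-hybridisation. These sums join markers on opposite sides of the reference. CHI3L1 read 1.60 and 1.88 in CD26+ cells and 2.27 and 2.78 in CD26- cells. CD14 read -1.49 and -1.56 in CD26+ cells and -1.16 and 0.32 in CD26- cells. For CD163 and CSF1R, which define such cells, no probe was named. Of 7 markers of type 2 DC (cDC2) 3 could be named and tested, and FCER1A, a chain of the IgE receptor, at -1.64, and CLEC6A were lower in CD26+ cells of each sheep while CD1, at 1.78, was higher. The summed log2 ratios of the 3 were -2.66 and -1.63 in CD26+ cells, -1.89 and -0.42 in CD26- cells and -0.43 on the self-hybridisation. This sum also joins opposite sides, with FCER1A at -3.01 and -3.29 and CD1 at 1.46 and 1.95 in CD26+ cells. FCER1A was well above background in Cy3 on only 1 of the 2 CD26+ arrays, so the size of its values there is uncertain. Of 4 Langerhans cell markers the 1 measured, the tight junction gene CLDN1, stood at -1.25 between the subsets, -0.29 and -0.60 in CD26+ cells, 0.83 and 0.78 in CD26- cells and -0.14 on the self-hybridisation. FCER1A, CLEC6A and CLDN1 were at least 2-fold lower in CD26+ cells of each sheep, and CD1 and IL12B at least 2-fold higher. Neither CD14 nor CHI3L1 reached 2-fold in each sheep. The part of these cell types in the TLR8 and TLR3 values was not tested. In RNA of sorted bulk cells, fewer cells that carry a receptor and less of its RNA per cell cannot be told apart.

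Genes around the receptors were taken from lists of accessory proteins, adaptors and kinases, transcription factors, target genes and other innate sensors, and 27 of 88 listed genes could be named and tested. None was called. The coreceptor CD14, which hands lipopolysaccharide to TLR4, read -1.49 and -1.56 in CD26+ cells, -1.16 and 0.32 in CD26- cells and 0.21 on the self-hybridisation, a difference of -1.10 (SE 0.60, adjusted p = 0.944 by limma). MYD88, the adaptor shared by most of the receptors, read 0.10 and 0.31 in CD26+ cells, 0.14 and 0.84 in CD26- cells and -0.03 on the self-hybridisation, with a difference of -0.28 (SE 0.41), which was 0.07 without the CD26- array of sheep 10081. TRAF3, a ubiquitin ligase of the interferon branch, was the only other measured member of 23 adaptors and kinases, with a difference of -0.82 (SE 0.45).

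Of 26 target genes 16 were tested, 4 lower and 7 higher in CD26+ cells in both sheep, against 28.5% and 27.6% of all probes. Those at least 2-fold apart in both sheep were the interleukin-12 chain IL12B and IL1A on the higher side and IL1B and CXCL8 on the lower, 2 each, against 2.42% and 2.98% of all probes. IL12B, the largest of them, read 3.99 and 4.34 in CD26+ cells, -0.50 and 1.03 in CD26- cells and 0.05 on the self-hybridisation. The neutrophil attractant CXCL8 read -4.12 and -3.87 in CD26+ cells, -1.49 and -2.13 in CD26- cells and -0.05 on the self-hybridisation. Target genes thus lay on both sides. Of 14 other sensors 4 were tested. The C-type lectins CLEC4E, at -1.80 (SE 0.59), and CLEC6A, at -1.13 (SE 0.54), were also lower in CD26+ cells. Both were lower by 2-fold or more in both sheep, as TLR8 was. CLEC4E was well above background in Cy3 on only 1 of the 2 CD26+ arrays, so the size of its difference is uncertain. Of 14 transcription factors 4 were tested, with IRF1, an interferon-induced factor, at 0.92 and 0.86 in the sheep, NFKBIA, the inhibitor of NF-kappaB, at -0.88 and -0.14, and 2 opposite.

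**Figure D4:**
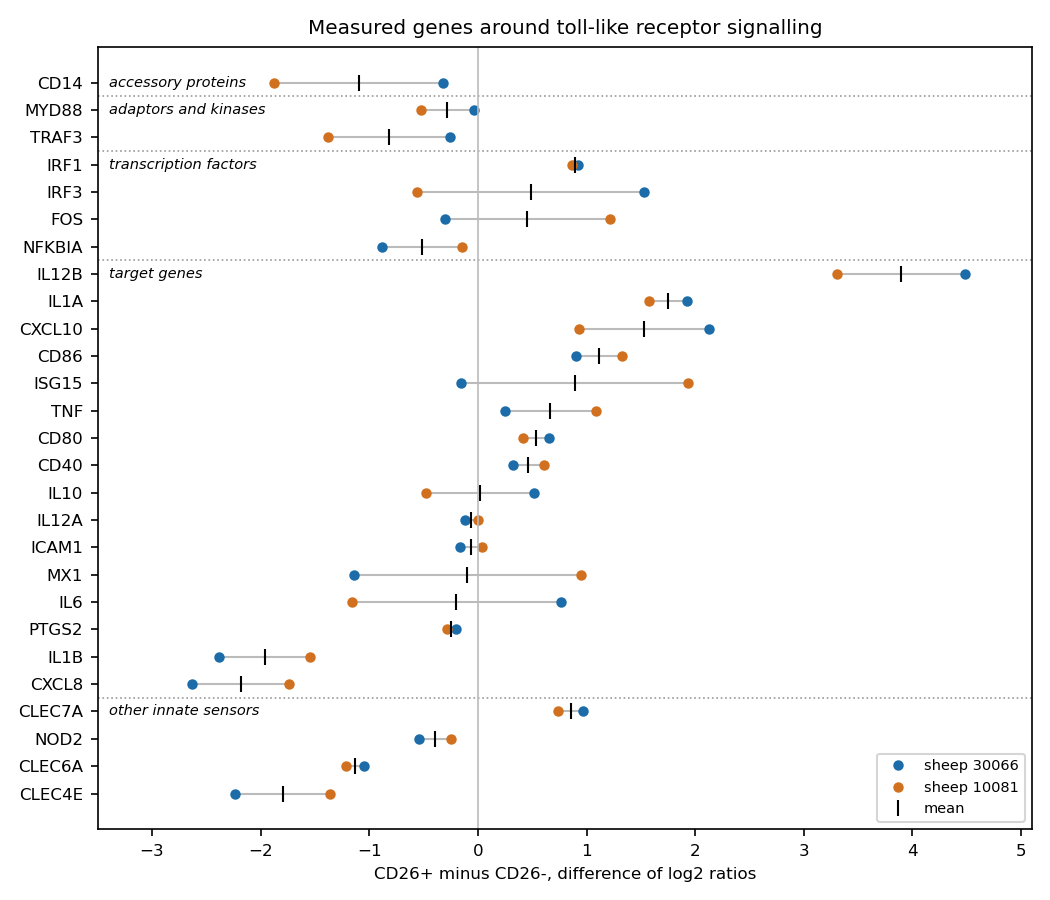
Difference of log2 ratios between CD26+ and CD26- cells (horizontal axis) for the 27 measured genes of 5 lists around toll-like receptor signalling, with points for single sheep and a bar for their mean. Target genes lie on both sides of 0, from CXCL8 at -2.18 to IL12B at 3.90, and none passed the test.

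The profile of each receptor over the 5 arrays was set against 565 named genes by the root mean square difference of log2 ratios, a description over arrays that share 1 reference. Closest to TLR3 was CD14 at 0.21, followed by AREG, a growth factor, SLAMF1, a receptor of activated lymphocytes and DC, BAMBI and EDN1 at up to 0.49, where the median over all genes was 1.30. CD14 was low on the same 3 arrays as TLR3 and near the reference on the CD26- array of sheep 10081 and on the self-hybridisation. Closest to TLR8 were FST, which binds activins, at 0.41, the survival factor BCL2L1 at 0.44, ART4 at 0.48, BMP4 at 0.66 and RCAN1 at 0.71, with a median of 1.22 over all genes. Closest to TLR5 were PRMT1, MCP-3, TRPC4AP, CFL1 and YBX1, at 0.42 to 0.48 with a median of 1.03. Neither TLR5 nor TLR8 thus had a gene as near as CD14 was to TLR3. For TLR4 the closest were NRP2, at 0.14, GHRL, EDNRA, PURA and K38.

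Genes with similar profiles were also found for the remaining receptors. For TLR2 these were PSMD4, GRPEL1, XCL1, UGT1A9 and LOC100037668, at 0.24 to 0.30, and for TLR6 ROBO2, XCL1, UMPS, MUC2 and TRPV6, at 0.23 to 0.26. For TLR9 they were AQP2, CCN1, IGFBP3, SSTR5 and NOG, at 0.10 to 0.11, and for TLR10 HOXC13, CLMP, ANGPT1, TRHR and PAG11, at 0.08 to 0.10. The medians over all genes were lower here too, 0.79 for TLR2, 0.73 for TLR6, 0.65 for TLR9 and 0.67 for TLR10. The ratios of TLR9 and TLR10 varied little, and by this measure any gene near the reference on all arrays lies close to them.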

How the data were processed

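Feature Extraction 9.5.3.1 made the 5 deposited scanner files, per the file headers. The spot intensity it deposited is linear and not normalised, with local background, per the file headers, beside a log10 ratio of processed signals. The deposited value table holds a log2 ratio that equalled minus the log10 ratio over log10 of 2 within 5e-10, so it is Cy3 over Cy5; its medians were -0.068 to 0.015, and whether it was centred further is not known. Sample RNA was amplified before labelling, per the labels' protocols. The number of arrays, 2 per subset, limits precision. Median Cy3 signals were 204.3 to 307.1 units over a background of 36.5 to 39.

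Mean signals were background-corrected with normexp (offset 50, leaving out spots with a local background above 5 times their array's median), normalised by loess within arrays and averaged over spots of a probe (limma 3.58.1, R 4.3.3). Control and outlier-flagged spots were left out. Of 15008 probes, 13270 were tested and 1738 were dim; names, from the files and RefSeq (ARS-UI_Ramb_v3.0), reached 1195 probes of 688 genes. lmFit and eBayes fitted 3 group means (2 residual, 2.36 prior degrees of freedom), with Benjamini-Hochberg adjustment over all tested probes. A receptor with several probes is represented by the brightest tested one. Same-numbered arrays come from the same sheep, per the labels; their deviations correlated with r = 0.33. The fit was tested on simulated data.

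The receptors, the gene lists, the processing and the tests were chosen with earlier results of these data known. Named are every receptor, genes of the pathway lists called or at least 2-fold apart the same way in both sheep, measured adaptors and accessory proteins, and the 5 genes with the most similar profile for each tested receptor; TRAF3, CD1, CD86, the cell type markers, IRF1 and NFKBIA were named after their values were seen. 1 listed item is not reported here. Alternatives were the background model fitted on all spots, no background subtraction, the scanner's processed signals, median centring, other filters on dim probes, the sheep as a block, the mean over a receptor's probes, and leaving out each array.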

Additional observations from a re-analysis of the deposited data

Results flagged for a closer look

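TLR7 and TLR10 each had a probe left out of every comparison as dim that was above background on a single array, and neither was well above background on the self-hybridisation. TLR7 probe 1 was well above background on the CD26- array of sheep 10081, with a Cy3 signal of 68.9 units, against 54.5 units on the self-hybridisation. Neither CD26+ array was well above background. TLR10 probe 2 was well above background on the CD26- array of sheep 30066, with 71.4 units against 50.1 on the self-hybridisation. On that array its Cy5 signal was also the highest, 89.3 units against 62.9 to 71.8 on the others. Each rests on 1 of 2 CD26- arrays.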

How the results depend on the processing

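No probe was called in any comparison under any alternative, and with the sheep as a block the count between the subsets was also 0, so the replicate block changed no call. TLR8, TLR3 and TLR5 kept their direction between CD26+ and CD26- cells under the 12, 12 and 11 alternatives tried. Several of these alternatives could not have reversed it. The filters on dim probes and the block leave the estimate unchanged. Because the subset arrays did not overlap for these receptors, leaving out a single array cannot reverse it either. Leaving out 1 array gave -2.73 to -1.38 for TLR8, -1.85 to -0.32 for TLR3 and 0.35 to 1.62 for TLR5, and the other settings gave -2.12 to -1.66, -1.18 to -0.98 and 0.73 to 1.07. Directions reversed in 16 receptor values and 1 other, none of them called; apart from the settings with fewer arrays, the cause was not tested. Between CD26+ and CD26- cells, fitting the background on all spots gave 0.31 for TLR4 and -0.12 for TLR10, and median centring -0.042 for TLR9. Without single arrays, TLR2 ranged from -0.20 (without CD26+ of sheep 30066) to 0.93, TLR6 from -0.80 to 0.19 (without CD26+ of sheep 10081), TLR4 from -0.70 to 0.41 (without CD26- of sheep 30066), and TLR9 from -0.15 to 0.33 and MYD88 from -0.63 to 0.071 (the low TLR9 and the high MYD88 value without CD26- of sheep 10081). For CD26+ against total DC, TLR2, TLR6 and TLR9 were 0.16, 0.022 and 0.047 without the CD26+ array of sheep 10081 and -0.97, -0.97 and -0.085 without that of sheep 30066, and TLR9 was 0.089 with the background fitted on all spots and 0.15 as the mean over its probes. For CD26- against total DC, TLR3 was 0.042 with the background fitted on all spots, TLR3, TLR4 and TLR9 were 0.41, -0.13 and -0.35 without the CD26- array of sheep 30066 and -1.11, 0.98 and 0.14 without that of sheep 10081. Median centring moved the median of all tested probes against total DC to -0.26 for CD26+ and -0.23 for CD26- cells, from -0.02 and -0.03. Signals near background limit TLR1, TLR7 and the second TLR10 probe most. Cy3 signals on the self-hybridisation were also low for TLR5, TLR9 probe 2 and TLR10 probe 1, at 62.8, 73.8 and 87.5 units.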
